A study of Mus musculus with 2 samples.

Results

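The genes described here are 39 genes of cholesterol and fatty acid metabolism, chosen by symbol from the 24081 gene symbols of the deposited count table. They cover the SREBP control system, the mevalonate and sterol steps of cholesterol synthesis, sterol efflux and storage, and the synthesis, desaturation, elongation and oxidation of fatty acids. All 39 were in the table, and 38 had a mean of at least 20 reads over both libraries, the floor used for ratios. The desaturase gene Fads2 was under it, with 3 reads in WT and 10 in KO.

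RNA was sequenced from regulatory T (Treg) cells of 5-week-old C57BL/6 mice. Treg cells restrain immune responses and are defined by the factor Foxp3, and here lymph node and spleen cells were sorted for CD4 and for YFP. Mice of both groups carried Foxp3cre/wt, a Cre recombinase driven by the Foxp3 gene on 1 allele. The control group (WT) had 1 floxed and 1 wild-type allele of the targeted gene of the SUMO pathway, and the knockout group (KO) had both alleles floxed. Each group was a single library of cells pooled from 5 to 10 mice. Foxp3 lies on the X chromosome, so mice with 1 Cre allele also hold Treg cells without Cre, which the sort for YFP leaves out. Both samples are labelled as wild type in the genotype field, so the groups rest on the sample titles and the series' design text.

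With 1 library per group no difference has a replicate check, and no test was run. Folds are ratios of counts scaled with TMM factors, given with an exact 95% interval that covers counting error only. Log2 ratios are KO over WT with a pseudocount of 1 on the scaled counts, and calls of higher or lower were made from 1.5-fold up on that scale. The WT library held 11662867 gene reads and the KO library 23789264, and the 39 genes took 0.349% and 0.365% of them. Treg and T cell markers were high in both libraries, with Foxp3 at 713 CPM, the count scaled to a fixed library size, in WT and 1320 in KO and Cd4 at 1939 and 2348. Of the 6 markers Foxp3 was called higher and Ikzf2 lower (322 and 203 CPM), and Cd3g was at 527 and 366 CPM. Of 8 adipocyte markers, 5 had no read in either library Adipoq had 5 and 2, Fabp4 had 0 and 4, and Lipe, a lipase gene, held nearly all of the list's reads with 146 and 378 (1.34-fold higher, 1.10 to 1.63). The 9 macrophage and monocyte markers all had reads, with a summed level of 645 and 604 CPM and Csf1r at 266 and 235. Vsig4 was under the floor with 2 and 5 reads, and none of the 8 measured was called higher or lower. Of 5 B cell markers in the table, Cd79b and Ms4a1 were called lower (summed level 113 and 91.2 CPM), as were both measured erythroid markers (14.4 and 5.57 CPM). Of 6 stromal and endothelial markers Pecam1, at 295 and 324 CPM, held nearly all reads and Pdgfra had none. The part of these cells in the levels of the lipid genes was not tested. Fewer cells of a type and less RNA per cell cannot be told apart in such bulk libraries.

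SREBP proteins are transcription factors held in the endoplasmic reticulum membrane by SCAP and the INSIG proteins. When membrane sterol is low, SCAP escorts SREBP to the Golgi, where it is cut, and its released part enters the nucleus and activates genes for making cholesterol (mainly SREBP-2, from Srebf2) and fatty acids (mainly SREBP-1c, from Srebf1). T cells build both lipids when they divide, and fatty acid oxidation in mitochondria is a fuel of Treg cells.

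The genes of cholesterol synthesis were mostly higher in the KO library, those of sterol efflux and storage were level or lower, and those of fatty acid metabolism went both ways. Of the 38 measured genes, 3 were called higher, Mvd, Pmvk and Mvk, all enzymes of the mevalonate steps, and none was called lower. None reached 2-fold in either direction, where 1.59% of expressed genes were at least 2-fold higher and 2.08% at least 2-fold lower. Among all 10899 expressed genes, 7.43% were called higher and 5.51% lower, so 3 of 38 is near the background. Scaling by total count gave 2 called higher and 1 lower. The median log2 ratio was 0.15 over the 38 genes and 0.01 over all expressed genes. The counting interval lay above 1 for 19 of the 38 and below 1 for 10, against 29.1% and 25.6% of all expressed genes. Of the 15 mevalonate and sterol step genes, 14 had a log2 ratio above 0, where 51.4% of expressed genes did, and 12 had an interval above 1. These 15 genes together had 474 CPM in WT and 601 in KO. Earlier results of these data already showed cholesterol synthesis genes higher as a group, and the genes were listed with those results known.

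**Figure D1:**
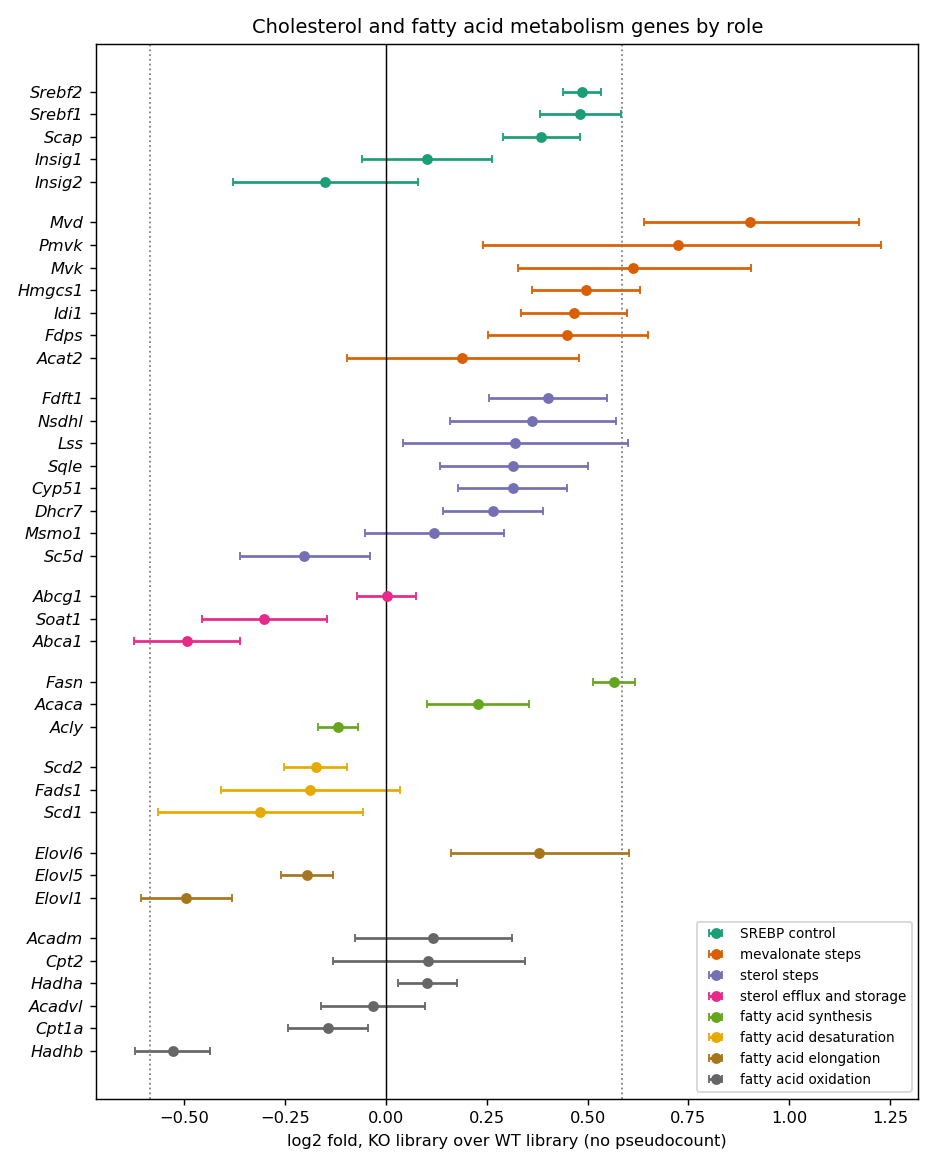
Log2 fold of KO over WT on the x axis for the 38 measured genes, grouped by role, with points for the fold without pseudocount, bars for the exact 95% counting interval and dotted lines at 1.5-fold. All 7 mevalonate step genes lie to the right of 0, and Hadhb, Elovl1 and Abca1 lie farthest to the left.

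The mevalonate steps turn acetyl-CoA into isoprenoid units, and all 7 of their genes were higher in the KO library, with a median log2 ratio of 0.49. Mvd encodes the decarboxylase that makes isopentenyl diphosphate. It had 151 reads in WT and 546 in KO, or 12.6 and 23.6 CPM, a 1.87-fold higher level (1.56 to 2.25). The Mvd gene lies on chromosome 8 from 122433601 to 122443422 in GRCm38. Pmvk, the phosphomevalonate kinase of the preceding step, had 47 and 150 reads (3.92 and 6.48 CPM, 1.65-fold, 1.18 to 2.34). Mvk, the mevalonate kinase before it, had 135 and 399 (11.3 and 17.2 CPM, 1.53-fold, 1.25 to 1.87). The 3 enzymes that act in a row on mevalonate thus held the 3 highest ratios of the 38 genes, and each rested on 151 reads or fewer in WT.

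The other 4 mevalonate step genes were higher by less than 1.5-fold. Idi1, the isomerase of the isoprenoid units, had 659 and 1759 reads, or 55.0 and 75.9 CPM (1.38-fold, 1.26 to 1.51). Hmgcs1, the HMG-CoA synthase and a textbook SREBP target, had 626 and 1706 (1.41-fold, 1.28 to 1.55). Fdps, which joins the units to farnesyl diphosphate, the branch point to sterols and prenylated proteins, had 292 and 771 (1.37-fold, 1.19 to 1.57). Acat2, the cytosolic thiolase of the first step, had 148 and 326, and its interval spanned 1 (1.14-fold, 0.935 to 1.39). Its paralog Acat3 had 1 and 2 reads, and how reads shared by the pair were counted was not tested.

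The promoters of the listed genes were searched for letters known from SREBP targets. Sequences are from RefSeq (GRCm38.p6), which held windows of 250 bases before to 50 after the start site for 32 of the 39 genes. The other 7, Fdps, Fdft1, Sqle, Abcg1, Scd1, Scd2 and Fads1, had no window and were not searched. The stretches shown are the 150 bases upstream of the start site, 5′ to 3′ on the gene's strand, for Hmgcs1, which held the only sterol regulatory element match, and for Mvk and Mvd. Capitals mark TCACNCCAC, a loose form of the sterol regulatory element, and CCAAT, the box bound by NF-Y, a partner of SREBP, on either strand (ATTGG when reversed).
Hmgcs1 (chr13:119690201-119690350, plus strand): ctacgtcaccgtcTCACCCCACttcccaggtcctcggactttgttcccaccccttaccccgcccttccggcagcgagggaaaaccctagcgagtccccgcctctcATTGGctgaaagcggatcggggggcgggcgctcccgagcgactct
Mvk (chr5:114444119-114444268, plus strand): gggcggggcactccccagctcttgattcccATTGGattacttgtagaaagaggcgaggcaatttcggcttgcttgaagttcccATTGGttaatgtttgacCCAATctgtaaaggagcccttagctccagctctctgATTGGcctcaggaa
Mvd (chr8:122443423-122443572, minus strand): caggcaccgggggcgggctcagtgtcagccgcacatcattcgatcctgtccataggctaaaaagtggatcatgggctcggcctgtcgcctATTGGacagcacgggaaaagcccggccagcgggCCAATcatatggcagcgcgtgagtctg

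In the whole windows, CCAAT was in 11 of the 12 matched mevalonate and sterol step genes (91.7%), in 21 of the 32 matched genes (65.6%), and in 41.1% of all 27025 genes of the promoter table (43.3% of the expressed ones). Mvk held 5 copies and Hmgcs1 and Nsdhl 4 each, and Acat2 held none. The box was also in 4 of 5 control genes, 2 of 3 elongase genes and 1 of 6 fatty acid oxidation genes. Genes with an interval below 1 held it too, among them Sc5d, Soat1, Acly, Elovl1, Elovl5 and Cpt1a. The strict consensus of the element was in none of the 32 windows and in 0.0999% of all genes. The loose form TCACNCCAC, which is part of the strict one, was in Hmgcs1 alone (3.125% of the 32, 1.44% of all genes). The E-box CACGTG, another SREBP-binding form, was in 6 of 32 (18.75%) and in 8.09% of all genes (12.1% of the expressed ones). These counts describe letters in a window and not binding, and their relation to the ratios was not tested.

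The sterol steps run from farnesyl diphosphate through squalene to cholesterol. Of their 8 genes, 7 had a log2 ratio above 0, with a median of 0.31 and none called. Fdft1, squalene synthase, had 538 reads in WT and 1374 in KO, or 44.9 and 59.3 CPM (1.32-fold, 1.19 to 1.46). Cyp51, the lanosterol demethylase, had 634 and 1524, or 52.9 and 65.8 CPM (1.24-fold, 1.13 to 1.37). Dhcr7, the reductase that makes cholesterol from 7-dehydrocholesterol, had 762 and 1770, the most reads of this group (1.20-fold, 1.10 to 1.31). Nsdhl, the sterol dehydrogenase of the demethylation complex, had 274 and 681 reads (1.29-fold, 1.12 to 1.48), and Sqle, the squalene epoxidase, had 349 and 840 (1.25-fold, 1.10 to 1.41). Lss, lanosterol synthase, had 153 and 369 (1.25-fold, 1.03 to 1.52). Msmo1, the methylsterol oxidase of the same complex, had 410 and 861, with an interval that spanned 1 (1.09-fold, 0.964 to 1.22). Sc5d, the desaturase just before Dhcr7, went the other way, with 504 and 847 reads or 42.1 and 36.6 CPM (1.15-fold lower, 1.03 to 1.29). As scaled, the late steps therefore did not move as a block: the neighbours Sc5d and Dhcr7 lay on opposite sides of 1. With the GC and length trend removed, Sc5d was close to level, at a log2 ratio of -0.06, and Dhcr7 was at 0.27.

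Genes of the control system were higher for the factors and their escort, and had intervals that spanned 1 for the retention proteins, a contrast that was not seen with the GC and length trend removed. Srebf2 had 4890 reads in WT and 13246 in KO, or 408 and 572 CPM (1.40-fold, 1.36 to 1.45). Srebf1 had 1116 and 3014 (1.40-fold, 1.30 to 1.497), and Scap 1262 and 3187 (1.31-fold, 1.22 to 1.39). Per transcript length, Srebf2 stood 3.71 times above Srebf1 in WT and 3.72 times in KO. Insig1, itself a known SREBP target, had 465 and 964 reads (1.07-fold, 0.959 to 1.20), and Insig2 had 251 and 437 (1.11-fold lower, 0.947 to 1.30). Both INSIG intervals spanned 1.

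Genes that export or store sterol were not higher in the KO library. Abca1, the transporter that loads cholesterol onto apolipoprotein A-I and a target of the LXR receptors, had 814 reads in WT and 1117 in KO, or 68.0 and 48.2 CPM (1.41-fold lower, 1.29 to 1.54). Soat1, which esterifies cholesterol for storage, had 562 and 881 (1.23-fold lower, 1.11 to 1.37). Abcg1, the partner exporter that loads HDL, had 2274 and 4401 reads and the same level in both, 189.8 and 190.0 CPM (1.00-fold, 0.951 to 1.05). The ratio of Abcg1 to Abca1 reads, which no scaling between libraries can alter, was 2.79 in WT and 3.94 in KO, an odds ratio of 1.41 (exact interval 1.27 to 1.57). Macrophages also express all 3 genes. The log2 ratios of the 8 measured macrophage markers ran from -0.41 to 0.20. Intervals lay below 1 for Adgre1 (-0.41), Cd68 (-0.38) and Csf1r (-0.18) and above 1 for C1qb (0.11). Those of Lyz2, Cd14, C1qa and Mertk spanned 1. The part of macrophages in the Abca1 and Soat1 values was not tested.

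**Figure D2:**
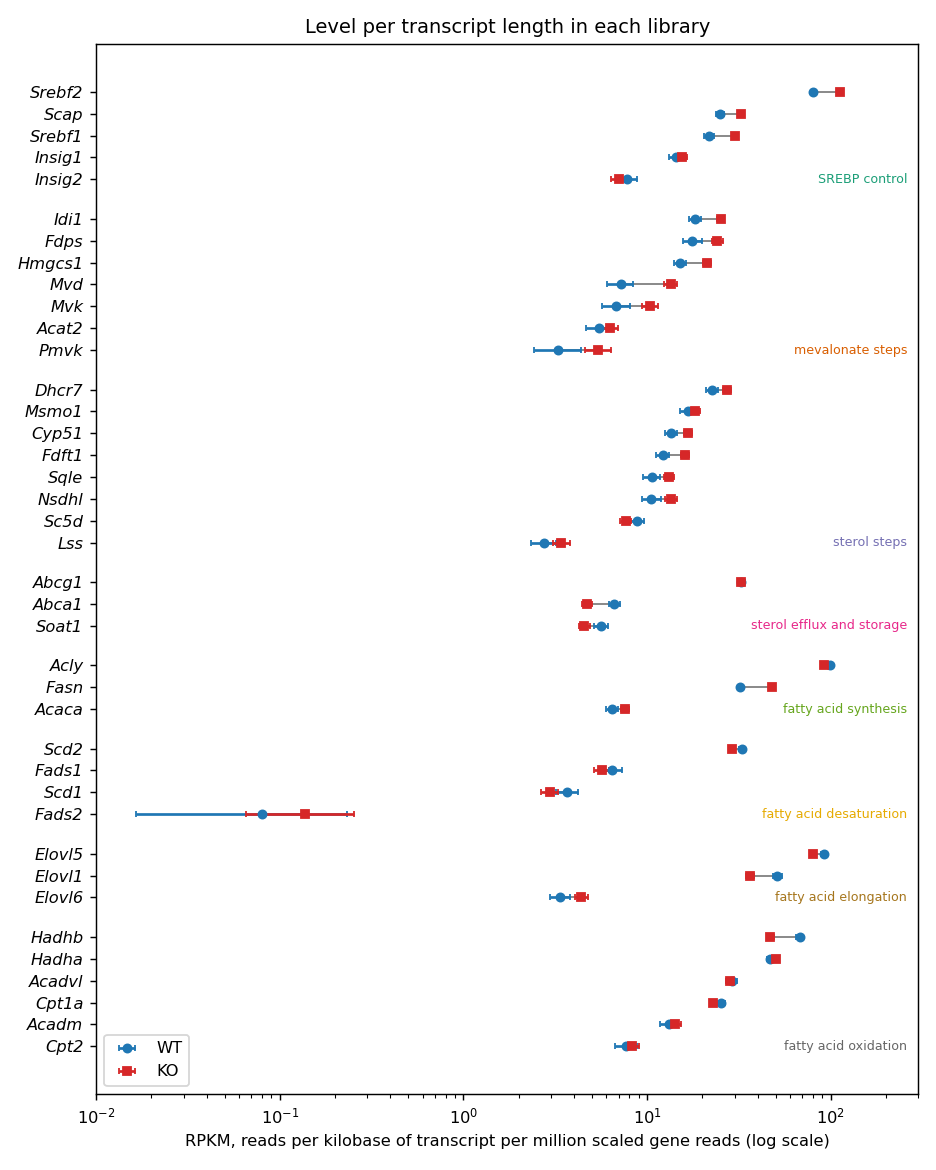
Level of each of the 39 genes on a log x axis, as RPKM (CPM per kilobase of the longest transcript), with circles for WT, squares for KO and bars for the exact Poisson 95% interval of the count. Acly, Elovl5 and Srebf2 are at the top in both libraries, and Fads2 lies far below all others.

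Per transcript length, Acly, Elovl5 and Srebf2 had the highest levels in the WT library (99.4, 91.6 and 80.4 RPKM), and Srebf2 led in the KO library (113, ahead of Acly at 91.5 and Elovl5 at 80.0). Among the 8 sterol step genes Dhcr7 stood highest in both (22.6 and 27.1) and Lss lowest (2.74 and 3.41). Of the stearoyl-CoA desaturases, which make monounsaturated fatty acids, Scd2 was the main form, 8.97 times above Scd1 per length in WT and 9.87 times in KO. Fads2, the entry desaturase for polyunsaturated fatty acids, was at 0.0795 and 0.137, while Fads1, which acts after it, was at 6.44 and 5.65.

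The 3 core enzymes of fatty acid synthesis differed from each other. Fasn, the synthase that builds palmitate, had 3872 reads in WT and 11079 in KO, or 323 and 478 CPM (1.48-fold, 1.43 to 1.54), just under the 1.5-fold threshold that Mvk passed. Acaca, which makes the malonyl-CoA that the synthase uses, had 735 and 1665 (1.17-fold, 1.07 to 1.28). Acly, which makes cytosolic acetyl-CoA from citrate and so feeds both fatty acid and sterol synthesis, had 5270 and 9379 (1.09-fold lower, 1.05 to 1.12). The 3 measured desaturase genes were all lower by small amounts. Scd2 had 2146 and 3676 reads (1.13-fold lower, 1.07 to 1.19), Scd1 had 212 and 330 (1.24-fold lower, 1.04 to 1.48), and Fads1 had 267 and 453 (1.14-fold lower, 0.976 to 1.33, spanning 1).

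The 3 elongase genes went different ways. Elovl1, which makes saturated and monounsaturated very long chains, had 1111 reads in WT and 1524 in KO, or 92.7 and 65.8 CPM (1.41-fold lower, 1.30 to 1.52). Elovl5, which extends polyunsaturated chains, had 3054 and 5155 (1.15-fold lower, 1.10 to 1.20). Elovl6, which extends palmitate to stearate, had 240 and 604 (1.30-fold higher, 1.12 to 1.52).

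The 6 fatty acid oxidation genes lay 3 on each side of 0, with a median log2 ratio of 0.03. Their summed level was 543 CPM in WT and 506 in KO (0.932-fold, 0.904 to 0.961). Hadhb alone fell by more CPM than this sum did, so the sum does not show a fall shared by the 6 genes. The interval was below 1 for 2 of them, above 1 for 1 and spanned 1 for 3. Cpt1a, the carnitine palmitoyltransferase that gates entry of fatty acids into mitochondria, had 1304 and 2281 reads (1.11-fold lower, 1.03 to 1.18), and its inner-membrane partner Cpt2 had 218 and 453 (1.08-fold, 0.912 to 1.27). The dehydrogenases Acadm, for medium chains (321 and 673 reads), and Acadvl, for very long chains (750 and 1417), had intervals that spanned 1. Hadha and Hadhb encode the alpha and beta subunits of the mitochondrial trifunctional protein, and their start sites lie 86 bases apart on opposite strands of chromosome 5 in GRCm38. Hadha had 2251 reads in WT and 4673 in KO, or 188 and 202 CPM (1.07-fold, 1.02 to 1.13). Hadhb had 1657 and 2220, or 138 and 95.8 CPM (1.44-fold lower, 1.35 to 1.54), the lowest ratio of the 38 genes. The ratio of Hadha to Hadhb reads went from 1.36 in WT to 2.10 in KO, an odds ratio of 1.55 (1.43 to 1.68). The subunits of 1 complex, transcribed from neighbouring starts, thus did not keep the same ratio in the 2 libraries within counting error.

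Across all genes GC-rich transcripts had higher ratios, and the calls among these genes differed once a joint trend with GC content and transcript length was removed. GC content alone was not removed separately. Expressed genes were put into 10 bins of equal size by GC content, whose median log2 ratios ran from -0.19 at the lowest GC content to 0.37 at the highest. Mvd (59.3% GC) and Mvk (59.6%) were in the bin of highest GC content, while Idi1 (41.9%) and Hmgcs1 (43.1%) were in bin 2 from the bottom, where the median was -0.12. With the joint trend subtracted, 3 genes were again called higher and none lower, against 4.97% and 4.98% of the 10447 expressed genes with a GC value. They were Idi1 (log2 ratio 0.67), Hmgcs1 (0.67) and Mvd (0.64), so Mvd was the 1 gene called both ways. Mvk was then at 0.33 and Pmvk at 0.50.

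The trend touched the role groups unevenly. The mevalonate steps had a median of 0.50 without the trend and the sterol steps 0.36, with 14 of these 15 genes again above 0. The GC-rich factors came down, Srebf2 from 0.49 to 0.19, Srebf1 from 0.48 to 0.18 and Scap from 0.39 (GC content 59.1%) to 0.06, while Insig1 went from 0.10 to 0.22, above all 3. Fasn (57.9% GC) came down from 0.57 to 0.22. Abca1 was at -0.48 and Elovl1 at -0.44, inside their counting intervals, and Hadhb went from -0.53 to -0.34, beyond its own. The gap between Hadha and Hadhb was 0.63 before and 0.47 after.

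**Figure D3:**
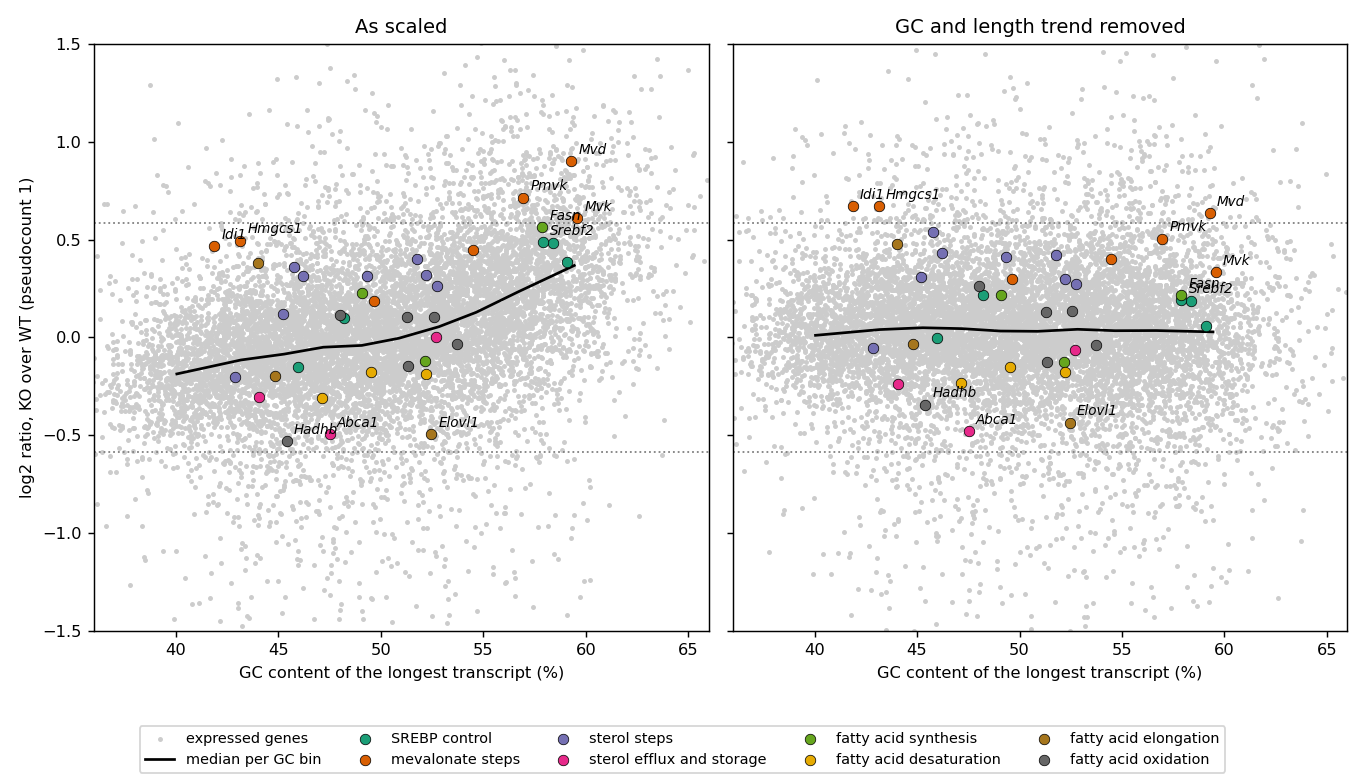
Log2 ratio of KO over WT on the y axis against GC content of the longest transcript, as scaled (left) and with the GC and length trend removed (right), with grey points for expressed genes inside the axes, a black line for their median per GC bin, coloured points for the 38 genes by role and dotted lines at 1.5-fold. Idi1 and Hmgcs1 stand above the black line at low GC content in both panels, while Srebf2 and Fasn are near 0.2 on the right.

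Other genes of the same pathways were read from lists chosen by function, again with earlier results known. Of 85 measured genes, 7 were called higher and 1 lower, with a median log2 ratio of 0.03, close to all genes. In the list of other sterol and prenyl chain genes, 9 genes are reported, 1 further gene is not reported here, and the median of the 9 was -0.26. Of the 9, 3 had a log2 ratio above 0 and 6 below. Tm7sf2, a sterol reductase, was called higher on 20 and 86 reads (2.22-fold, 1.36 to 3.82). With the GC and length trend removed Tm7sf2 was at 0.99 on the log2 scale and was still called higher. It was low per transcript length, at 1.11 RPKM in WT and 2.48 in KO. Lbr, picked after its values were seen, was at 83.7 and 68.7 RPKM. It had 3518 and 5582 reads (1.22-fold lower, 1.17 to 1.27). Ebp and Hsd17b7, enzymes of the same late steps picked after their values were seen, were at -0.33 and -0.43 on the log2 scale. With the GC and length trend removed, the median of the 9 was -0.13, with 4 above 0 and 5 below. Lbr was then at -0.13, Ebp at -0.23 and Hsd17b7 at -0.29, all nearer to level than as scaled. The higher level of the listed synthesis genes thus did not extend to every enzyme of the pathway.

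Among control and transport genes, Nr1h2, which encodes the LXR-beta receptor, was 1.52-fold higher (734 and 2157 reads, 1.40 to 1.65), and its counterpart Nr1h3 had 147 and 325 reads (log2 ratio 0.19). Abca7, a lipid transporter, was 1.62-fold higher (1076 and 3378 reads, 1.51 to 1.74), and Tspo, an outer mitochondrial membrane protein, 1.79-fold higher (350 and 1212, 1.59 to 2.02). Stard4, a carrier of cholesterol between membranes and a known SREBP target, was 1.58-fold lower (387 and 473 reads, or 32.3 and 20.4 CPM, 1.38 to 1.81). With the GC and length trend removed Nr1h2, Abca7, Tspo and Stard4 were at 0.28, 0.32, 0.38 and -0.54, all inside 1.5-fold.

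Lists of fatty acid genes were near level, with medians of 0.14 for other synthesis genes (11 measured), -0.04 for uptake and activation (9) and -0.13 for other oxidation genes (20), where none was called. Acacb, the mitochondrial acetyl-CoA carboxylase, was called higher on 12 and 42 reads, with an interval that spanned 1 (1.81-fold, 0.936 to 3.78). Among lipid sensors and AMPK genes, the nuclear receptor gene Ppard was 1.81-fold higher (325 and 1135 reads, 1.60 to 2.05) and the coactivator gene Ppargc1b 1.72-fold higher (88 and 293, 1.35 to 2.21). Both came inside 1.5-fold with the GC and length trend removed, at 0.51 and 0.52 on the log2 scale. The related receptor genes were low, Ppara with 2 and 1 reads and Pparg with 39 and 54.

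**Figure D4:**
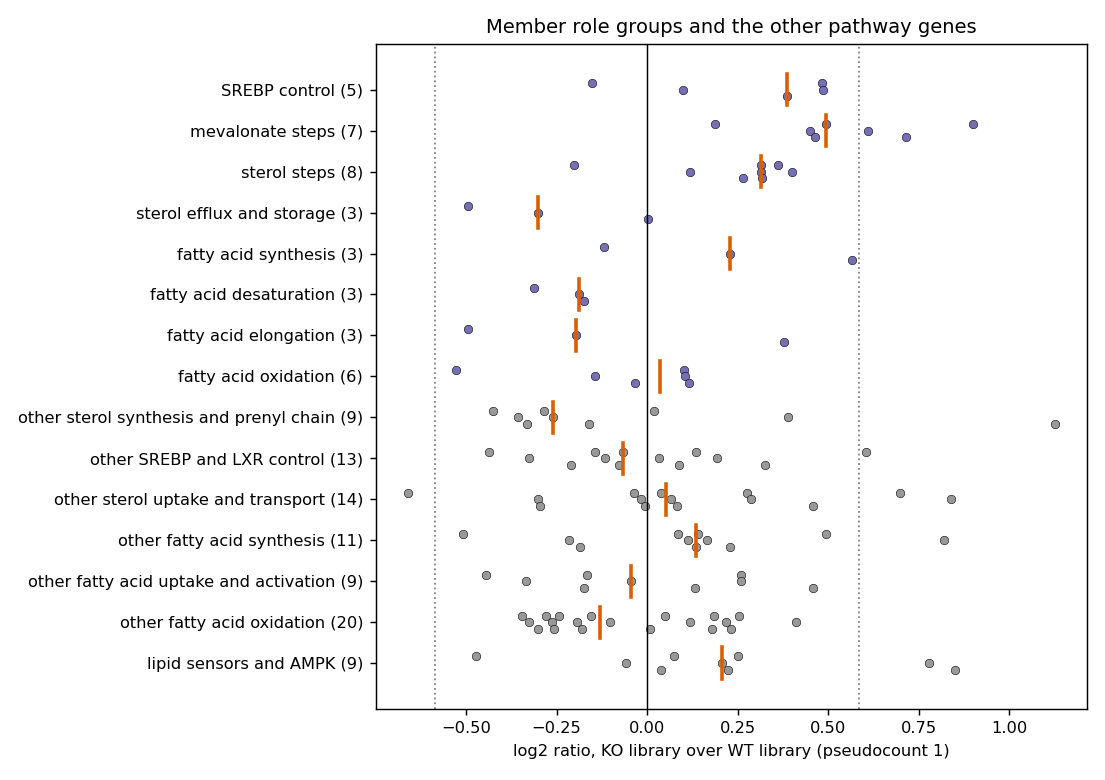
Log2 ratio of KO over WT (x axis) for each measured gene of the role groups (purple) and of the other pathway lists (grey), with the number of genes in brackets, an orange bar at each list's median and dotted lines at 1.5-fold. The mevalonate steps have the highest median, 0.49, and the sterol efflux and storage genes the lowest, -0.30.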

How the data were processed

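The authors deposited 1 table of raw read counts per gene symbol for both libraries. The submitters' processing notes name TopHat2 2.0.3, HTSeq and mm10. Annotation and strand setting: not given in the sources used here. Entries for reads outside genes (23.4% of counted reads in each library) were left out of library sizes. Exons of 12 of the 39 genes overlap another gene (2 on the same strand, Fdps and Scd2, and 10 on the other one), and such counts are uncertain. Ambiguous reads had an entry of their own, 1.53% of counted reads in WT and 1.57% in KO. How many of them came from these genes is not known.

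Counts were scaled with TMM (edgeR 4.0.16, R 4.3.3). Intervals are exact conditional binomial intervals from raw counts. They treat reads as independent molecules, which PCR reads without identifiers are not. Odds ratios between gene pairs, picked after the values were seen, are conditional estimates. Levels use the longest transcript of GENCODE vM21 (GRCm38, the build of mm10), and the GC and length trend was fitted with a smooth model in mgcv 1.9-3 over the 95.9% of expressed genes with a value. The ratio script was tested on simulated data. DESeq2 1.42.0 gave size factors only. Scripts ran in Python 3.11.15 with scipy 1.17.1.

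All 39 genes are named. Of the other pathway lists every measured gene past 1.5-fold is named. Lbr, Ebp, Hsd17b7, Nr1h3, Ppara and Pparg were not called and were picked. The genes, lists and tests were chosen with earlier results of these data known. The targeted gene and 1 other gene are not reported here.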

Additional observations from a re-analysis of the deposited data

How the results depend on the processing

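Scaling (DESeq2 size factors, total count, upper quartile), pseudocounts of 5 and 0.25, no filter on low counts, a floor of 100 mean reads, the GC and length trend and other call rules were tried. None of the 38 measured genes reached 2-fold, so that threshold gave 0 higher and 0 lower. Calling genes by a counting interval that leaves out 1 gave 19 higher and 10 lower. Total count scaling called 1 gene lower, Hadhb, and left Mvk uncalled. A floor of 100 mean reads left out Pmvk, and with no filter Fads2 was called higher on 3 and 10 reads. The desaturation median was -0.19 as scaled and -0.17 with the GC and length trend removed. Of the 38 genes, 10 moved beyond their counting interval when that trend was removed and 6 with total count scaling. Abcg1, at 0.00 as scaled, was the only gene whose sign differed under any of these settings. No paired analysis was possible because each group has 1 library. With 1 library per group no replicate could be left out, and the counting intervals hold no spread between mice. Depth limits Pmvk, Mvk, Mvd, Lss and Acat2 most among the synthesis genes.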
